A study of Homo sapiens with 12 samples.

Results

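The CDS-footprinted transcripts are the genes whose protein footprints lay mostly in coding sequence (CDS). A gene was taken when it had at least 10 footprint clusters, summed over the 4 footprint libraries, and more than 50% of them were in the CDS. This held for 1098 genes, or 17.7% of the 6214 genes with at least 10 clusters, out of 19892 genes listed. Of the other genes with at least 10 clusters, 1357 had most of their clusters in 3′ UTRs, 972 had most in introns and 2787 had no majority region. The 1098 genes held 31242 clusters, 14.0% of all clusters. The clusters of all 4 libraries chose the genes, so their CDS shares are given below as a description.

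The libraries came from Proximity-CLIP of HEK293 T-REx cells, a human embryonic kidney line with doxycycline-inducible transgenes. H2B-APEX2 cells expressed V5-H2B-APEX2, which places the peroxidase APEX2 on chromatin through a histone. APEX2-NES cells expressed V5-APEX2-NES, kept in the cytoplasm by a nuclear export signal, and Connexin43-APEX2 cells expressed Connexin43-EGFP-APEX2, a gap junction protein. The negative control was the T-REx line without an APEX2 transgene. In every line, cells were kept for 16 h with 4-thiouridine and doxycycline. A pulse of 30 min with biotin-phenol followed, and then peroxide and crosslinking light. A footprint is a piece of RNA that stayed protected from RNase by a crosslinked protein, and a cluster is a group of overlapping footprint reads that the authors called within 1 library. Each line gave 1 footprint, 1 streptavidin-bound and 1 total RNA library. Bound RNA is listed in a 2016 and a 2017 table, the first without H2B-APEX2, and no label says whether these are separate preparations. With 1 sample in each of the 12 groups, there are no replicates and no p-values, and the exact 95% intervals below cover counting error only.

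The footprint sheets held 133881 clusters and 1741844 crosslinked reads in H2B-APEX2, 45015 and 575990 in APEX2-NES, 23104 and 270633 in Connexin43-APEX2, and 20850 and 185487 in the negative control. Bound RNA held 8959072 to 22952413 reads per library and total RNA 33672174 to 56785972. Bound RNA held 8 of 8 fibroblast-like markers, with a summed level of 4.70 RPKM (reads scaled to gene length and library size) in H2B-APEX2, 141 in APEX2-NES, 61.3 in Connexin43-APEX2 and 194 in the negative control, while 0 of the 8 had a footprint cluster in any line. All 8 were also present in total RNA of every line. There LGALS1, the highest of them, stood at 3.72, 5.72, 18.9 and 9.10 RPKM in that order of lines. Of a wider list of 24 fibroblast-like and matrix genes, 1 reached 10 clusters, with 18, and 0 were members. Of the HEK293 markers, LIN28B had 83 clusters and PAX2 had 1. Because these are bulk libraries, fewer cells that express a gene and less RNA per cell cannot be told apart.

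Proteins other than ribosomes bind the body of an mRNA to splice, pack, export or silence it. In the cytoplasm most regulatory binding is known from 3′ UTRs, while elongating ribosomes travel through the coding sequence and displace what sits there. Exonic coding sequence is also bound in the nucleus, where exon junction complexes, SR proteins and export factors load on spliced exons. Crosslinking of 4-thiouridine needs a uridine at the contact, so the uridines of a sequence set where it can be seen.

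Some members carry repeats, in which the same coding letters recur within 1 transcript. The most repeated 24-base stretch of 4 of them is shown. A read that lies wholly within such a stretch is the same for each copy, while a longer read may differ. The deposited counts do not say which copy a read came from. Capitals mark T, the DNA letter for the uridines that 4-thiouridine can replace. Coding positions are counted from 1 at the A of the start codon, in the GENCODE 29 transcript with the longest CDS.
SON: ccaTggacTcccagaTgTTagcaa
MKI67: ggcTTcaaagagcTcTTccagaca
MUC16: acagTcTcTaTgTcaaTggTTTca
AHNAK: ggcccagacTggcaccTgaagaTg
The SON stretch occurs 8 times without overlap, between coding positions 2279 and 2572, and 5 of its 24 bases are T. The MKI67 stretch occurs 4 times between positions 3310 and 6975, also with 5 T. The MUC16 stretch occurs 10 times between positions 36551 and 41722, with 9 T. The AHNAK stretch occurs 12 times between positions 2608 and 14340, with 3 T. The sheets give clusters per gene and region without their positions, so whether any of these stretches was itself footprinted was not tested. Such repeats were few: 45 of 1091 members with an annotated CDS held a 24-base stretch at least 2 times (4.12%), against 152 of 5083 other genes with at least 10 clusters (2.99%).

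The members ranged from 10 to 242 clusters, with a median of 20, and 129 had at least 50. Their CDS share ran from 50.5% to 100%, with a median of 63.2%, and 11 genes had every cluster in the CDS. Just inside the limit were CDK12 (49 of 97 clusters), WAPAL (37 of 73) and USP1 (36 of 71). Just outside were PARP1 (29 of 58), ATP2B1 (28 of 56) and C10orf2 (28 of 56), and 173 genes stood at exactly 50%. By crosslinked reads in place of clusters, 1000 of the 1098 genes still had more than 50% in the CDS. Of the 1098, 290 had no intron cluster, 218 no 3′ UTR cluster and 711 no 5′ UTR cluster.

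By line, the CDS share of the members' clusters was lower in H2B-APEX2 than in the other lines. It was 55.6% (95% interval 54.8 to 56.4, 8614 of 15485 clusters) in H2B-APEX2, 73.9% (73.0 to 74.9, 5994 of 8106) in APEX2-NES, 74.6% (73.2 to 75.9, 3096 of 4152) in Connexin43-APEX2 and 74.3% (72.9 to 75.8, 2601 of 3499) in the negative control. The difference lay in introns, which took 22.6% of the members' clusters in H2B-APEX2, 2.08% in APEX2-NES, 4.02% in Connexin43-APEX2 and 5.80% in the negative control. Among clusters in exons alone, the CDS took 78.0% (77.2 to 78.8) in H2B-APEX2, 80.5% (79.6 to 81.4) in APEX2-NES, 82.2% (81.0 to 83.4) in Connexin43-APEX2 and 82.9% (81.5 to 84.2) in the negative control. The 3′ UTR share lay between 13.3% in Connexin43-APEX2 and 15.10% in APEX2-NES. By crosslinked reads in place of clusters the order changed, with a CDS share of 75.4% in H2B-APEX2, 74.6% in APEX2-NES, 78.1% in Connexin43-APEX2 and 73.2% in the negative control. Without the 7 mitochondrial mRNAs described below, the CDS share of reads was 60.9% in H2B-APEX2, 72.5% in APEX2-NES, 74.0% in Connexin43-APEX2 and 74.1% in the negative control. The lower CDS share in H2B-APEX2 was not particular to the members. In the other genes with at least 10 clusters it was 17.7% of clusters in H2B-APEX2, 34.5% in APEX2-NES, 32.6% in Connexin43-APEX2 and 29.5% in the negative control. Introns took 43.0%, 6.40%, 10.5% and 15.7% of those genes' clusters in that order of lines.

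**Figure D1:**
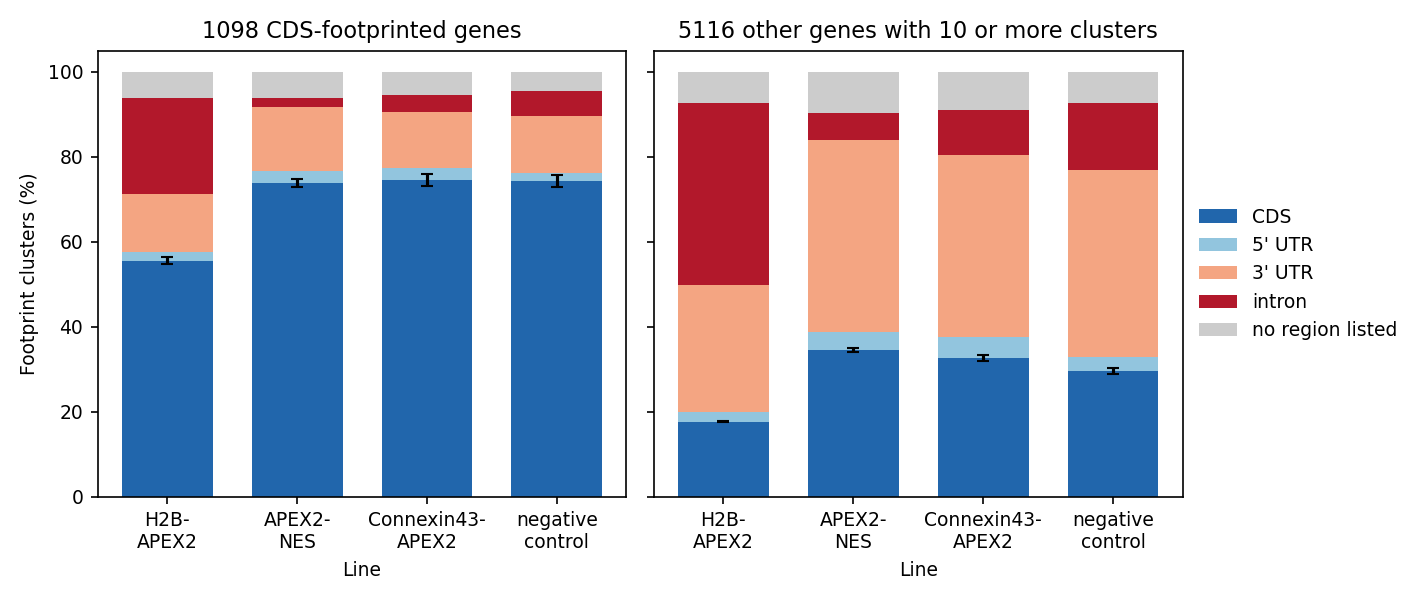
Bars give the share of footprint clusters (%) by transcript region in each line, for the 1098 CDS-footprinted genes and for the 5116 other genes with at least 10 clusters. Black error bars are exact 95% intervals of the CDS share (counting error only). Among the CDS-footprinted genes the intron share is 22.6% in H2B-APEX2 and at most 5.80% in the other lines.

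Gene by gene the pattern was the same for most of the members that could be compared. Of 605 members with at least 5 clusters in both H2B-APEX2 and APEX2-NES, the CDS share was higher in H2B-APEX2 for 92, lower for 491 and equal for 22, with a median difference of -18.6 percentage points. With exonic clusters alone it was higher for 220 and lower for 294, with a median difference of 0. Of 218 members with at least 5 clusters in both APEX2-NES and the negative control, the share was higher in APEX2-NES for 108 and lower for 103. Of the 1098 members, 692 had a CDS cluster in all 4 lines, 313 in 3, 83 in 2 and 10 in 1.

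The share was also measured in a library that did not choose the genes. When the rule was applied to the other 3 lines, the genes it took had 37.4% of their H2B-APEX2 clusters in the CDS (95% interval 36.8 to 38.1, 961 genes), against 15.04% for the other genes with at least 10 clusters on those lines. The share in the line left out was 72.0% (70.8 to 73.1, 746 genes) against 36.0% in APEX2-NES, 71.6% (70.1 to 73.1, 944 genes) against 34.0% in Connexin43-APEX2, and 71.6% (69.9 to 73.1, 981 genes) against 30.6% in the negative control. Clusters per kilobase of CDS differed less. They were 2.80 against 2.79 in H2B-APEX2, 1.61 against 1.42 in APEX2-NES, 0.792 against 0.699 in Connexin43-APEX2 and 0.675 against 0.586 in the negative control. Per kilobase of 3′ UTR they were 2.34 against 3.46, 0.919 against 1.17, 0.384 against 0.573 and 0.341 against 0.546 in that order of lines. The choice made without H2B-APEX2 shared 562 genes with the 1098, and those made without APEX2-NES, Connexin43-APEX2 and the negative control shared 709, 900 and 943. H2B-APEX2 gave 15485 of the 31242 clusters of the members, and leaving it out changed the choice of genes most.

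The members had long coding sequences and short 3′ UTRs. Values come from the longest GENCODE 29 transcript with a complete CDS, found for 1091 of the members and 5083 of the other genes with at least 10 clusters. Median coding length was 2346 bases in the members against 1326 in the other genes, median 3′ UTR length 835 against 1896 bases, and the coding share of the mRNA 67.2% against 37.5%. A coding exon of at least 1000 bases was present in 341 members (31.3%), against 592 other genes (11.6%). Median U content of the CDS was slightly lower in the members, at 21.1% against 22.4%, and median GC content higher, at 54.1% against 49.7%.

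The share of clusters was then set beside the share of length. In 918 of 1091 members (84.1%) the CDS took a larger part of the exonic clusters than of the mRNA's length, against 2830 of 5083 other genes (55.7%). The rule selects for this, so the difference between the sets is a description. Per kilobase, the members carried 5.72 clusters in the CDS and 2.83 in the 3′ UTR, against 4.80 and 4.73 in the other genes. Among those, genes with most clusters in 3′ UTRs carried 5.33 and 6.37, and genes with most in introns 3.23 and 2.15. The same clusters chose the genes, so these densities are a description too. Across all 6174 annotated genes with at least 10 clusters, the share that were members climbed through 5 equal bins of rising coding share of the mRNA, at 2.67%, 4.94%, 11.3%, 23.5% and 46.0%. Through the bins of coding length it was 3.16%, 10.4%, 14.3%, 23.5% and 37.1%. Through the bins of 3′ UTR length it was 34.8%, 23.2%, 13.6%, 8.83% and 7.85%. Across genes, Pearson's r of the CDS cluster share was 0.53 with the coding share of the mRNA and -0.07 with the U content of the CDS. Genes are not independent replicates, and all of these points share the same libraries.

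**Figure D2:**
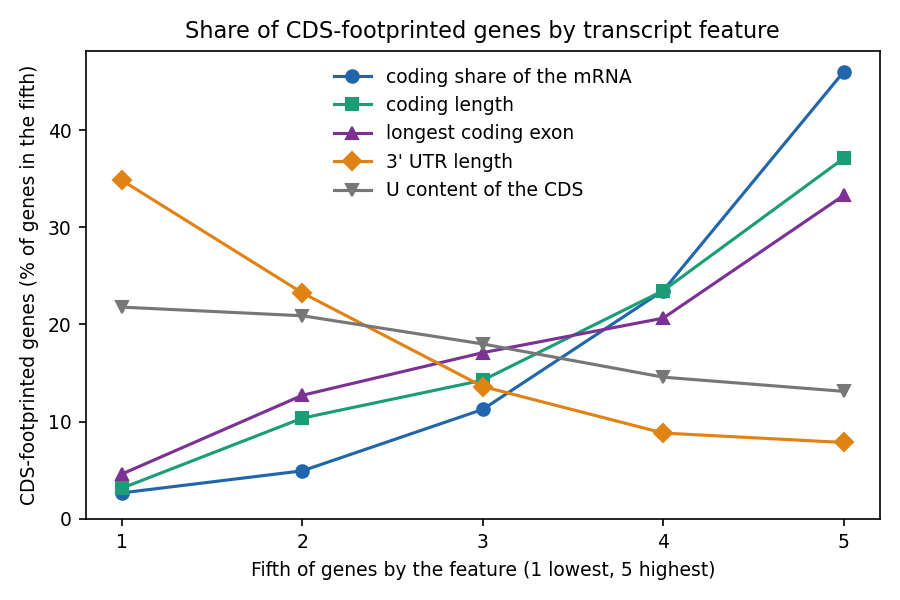
Lines give the share of genes (%) that are CDS-footprinted in 5 equal bins of the 6174 annotated genes with at least 10 clusters, ordered from the lowest to the highest bin of each feature. The share is 46.0% in the top bin of the coding share of the mRNA and 2.67% in the lowest, and 7.85% in the top bin of 3′ UTR length.

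Among the genes with most clusters were several that encode very large nuclear proteins. KMT2D (chr12:49412758-49453557, minus strand, hg19), a histone H3 lysine 4 methyltransferase, had 58 of 76 clusters in the CDS in H2B-APEX2, 71 of 88 in APEX2-NES, 37 of 46 in Connexin43-APEX2 and 28 of 32 in the negative control. Of the 15 members with most clusters, KMT2D, SRRM2 and SRCAP had more CDS clusters in APEX2-NES than in H2B-APEX2, although the H2B-APEX2 sheet is the deepest. SPEN (chr1:16174359-16266955, plus strand), a transcriptional repressor that binds RNA, had 59 of 80 in H2B-APEX2, 48 of 57 in APEX2-NES, 35 of 40 in Connexin43-APEX2 and 32 of 37 in the negative control. In SPEN the longest coding exon has 8176 of its 10992 coding bases.

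SON (chr21:34914924-34949812, plus strand) and SRRM2 are proteins of nuclear speckles, the stores of splicing factors. SON had 36 of 97 clusters in the CDS in H2B-APEX2, 32 of 50 in APEX2-NES, 29 of 37 in Connexin43-APEX2 and 23 of 29 in the negative control. Of its 213 clusters, 65 were intronic. SRRM2 had 23 of 56 in H2B-APEX2, 42 of 50 in APEX2-NES, 29 of 36 in Connexin43-APEX2 and 27 of 33 in the negative control. MKI67 (chr10:129894923-129924649, minus strand) encodes the proliferation antigen Ki-67, which coats mitotic chromosomes. It had 48 of 75 in H2B-APEX2, 41 of 54 in APEX2-NES, 31 of 41 in Connexin43-APEX2 and 19 of 25 in the negative control. The remaining 10 of the 15 were MAP1B (186 clusters), FAM208B (168), PRRC2C (158), MACF1 (152), CENPF (151), UBR4 (146), SRCAP (144), GCN1L1 (135), DST (133) and NUP155 (112). Their CDS shares ran from 53.2% (PRRC2C) to 77.5% (CENPF).

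**Figure D3:**
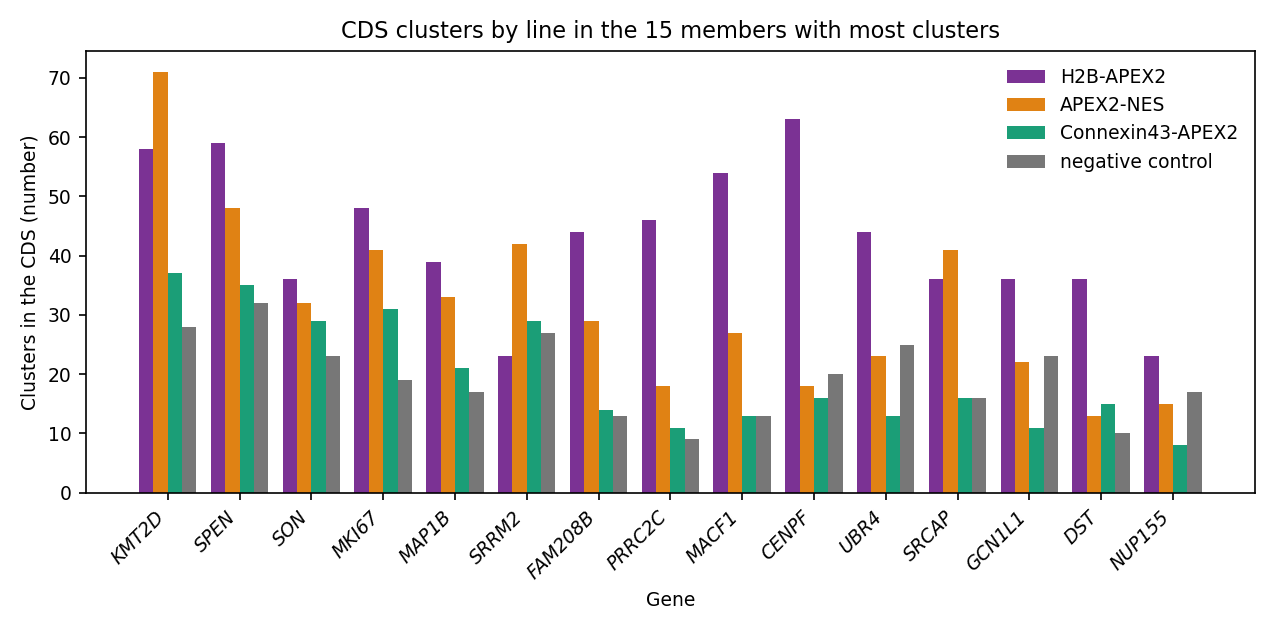
Bars give the number of CDS clusters in each line for the 15 members with most clusters in all, from KMT2D (242 clusters) to NUP155 (112). Counts are not scaled to depth. CENPF stands at 63 in H2B-APEX2, 18 in APEX2-NES, 16 in Connexin43-APEX2 and 20 in the negative control, while KMT2D is at 71 in APEX2-NES and 58 in H2B-APEX2.

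Among members with at least 30 clusters, those with the highest CDS share were MUC16, IRS4, SLC4A2, TLN1 and RECQL4. MUC16 (chr19:8959520-9092018, minus strand), a giant membrane mucin, had 63 of 63 clusters in its CDS of 43521 bases. They were 48 in H2B-APEX2, 6 in APEX2-NES, 2 in Connexin43-APEX2 and 7 in the negative control, while its bound RNA was at most 0.325 RPKM in the 2017 table. IRS4, an insulin receptor substrate whose CDS is a single exon of 3771 bases, had 12 of 13 clusters in the CDS in H2B-APEX2, 20 of 20 in APEX2-NES, 5 of 5 in Connexin43-APEX2 and 11 of 11 in the negative control. SLC4A2, an anion exchanger, had 34 of 36, TLN1, the integrin activator talin, 32 of 34, and RECQL4, a DNA helicase, 31 of 33.

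By function, 237 members stood in at least 1 of 31 gene lists and 861 in none. The lists were chosen with results of these data known, and a list's count is read beside the 17.7% of all genes with at least 10 clusters that were members. After the mitochondrial mRNAs described below, the lists with the largest member shares held 12 of 18 giant ubiquitin ligases and related proteins (66.7%), 5 of 8 phosphoinositide 3-kinase-like kinases (62.5%), 13 of 23 nucleolar proteins (56.5%) and 9 of 16 large subunits of RNA polymerases II and III and Mediator (56.3%). Close behind were 16 of 29 chaperones (55.2%), 14 of 26 actin, spectrin and cytolinker proteins (53.8%), 23 of 43 chromatin remodellers and histone modifiers (53.5%) and 12 of 24 spliceosome proteins. From the ubiquitin ligases to the spliceosome proteins, the lists' members had median coding lengths of 1744.5 bases (chaperones) to 12279 (ubiquitin ligases). The median of all members was 2346. Membership rose with coding length across genes, as given above, and its part in the list shares was not tested.

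At the other end, no ribosomal protein gene was a member, with 0 of 33 for the large subunit and 0 of 18 for the small subunit. Their clusters lay in introns (42.3% and 60.8% for large and small subunit genes) and 3′ UTRs (31.5% and 15.6%), with 9.0% and 8.6% in the CDS. None of the 40 genes of SR and hnRNP proteins, the splicing regulators, was a member either, and 41.6% of their 3284 clusters were intronic and 18.4% in the CDS. Of 35 cytoplasmic mRNA-binding proteins 4 were members (11.4%), of 38 translation factors 5 (13.2%), and of 17 detained-intron transcripts 1 (5.88%). Of 204 genes named ZNF, a list added after values were seen, 29 were members (14.2%).

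**Figure D4:**
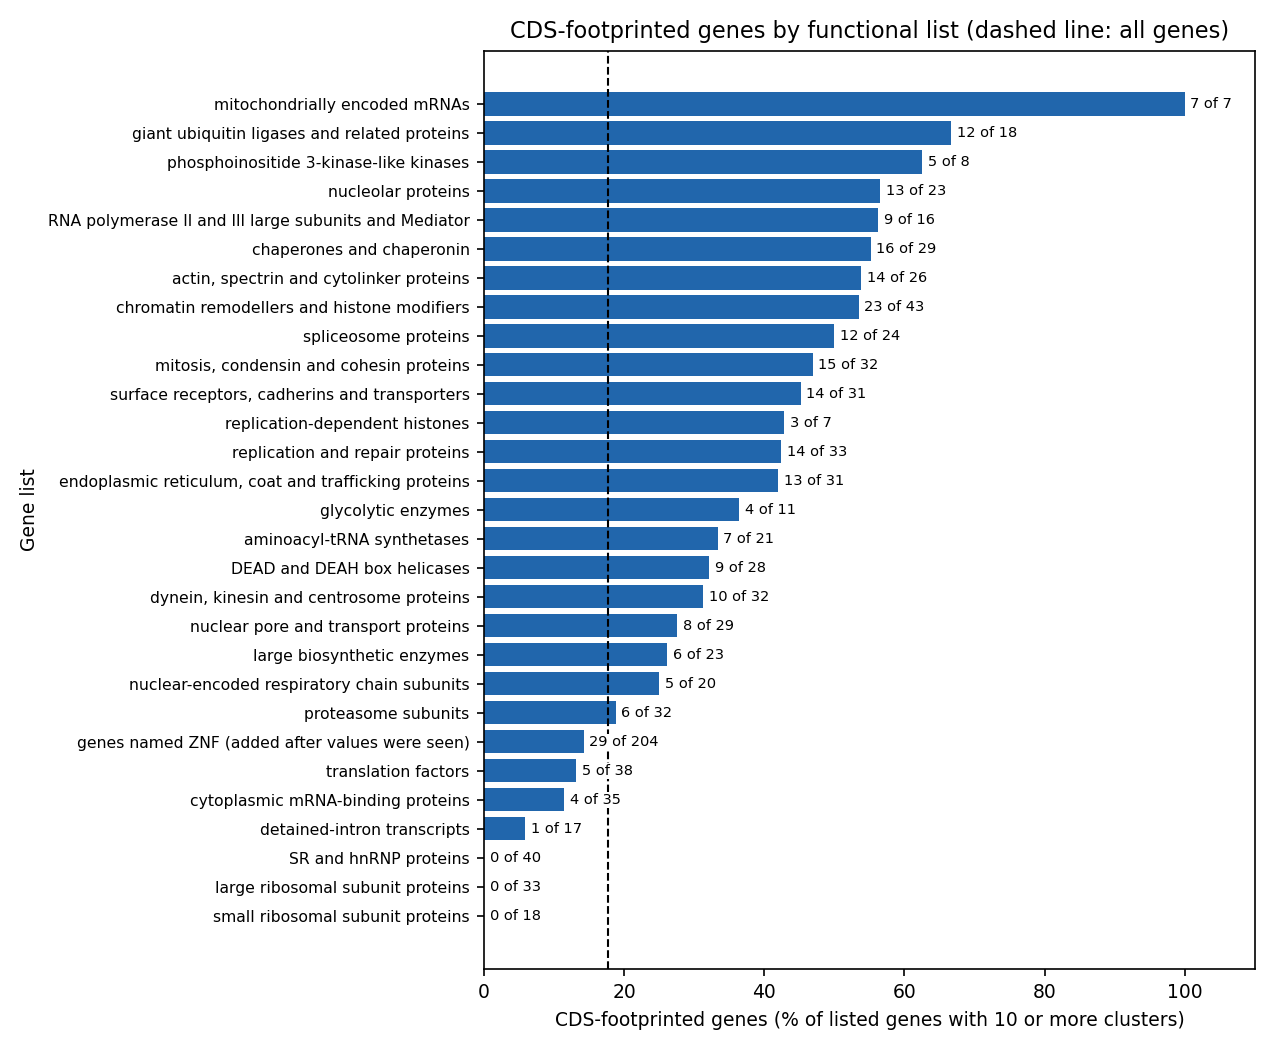
Bars give the share of each list's genes with at least 10 clusters that are CDS-footprinted (%), with the counts beside them, for lists with at least 5 such genes. The dashed line is the 17.7% of all 6214 genes. All 7 mitochondrially encoded mRNAs and none of the 33 large and 18 small ribosomal subunit genes or 40 SR and hnRNP genes are members.

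Within the chromatin list, members included KMT2D, KMT2C and BAZ2A, part of a complex that silences ribosomal DNA. KMT2C, a paralogue of KMT2D, had 32 of 71 clusters in the CDS in H2B-APEX2, 22 of 24 in APEX2-NES, 4 of 5 in Connexin43-APEX2 and 8 of 11 in the negative control. BAZ2A had 20 of 35, 25 of 33, 9 of 13 and 6 of 11 in that order of lines. SSRP1, a subunit of the histone chaperone FACT, had 2 of 4 in H2B-APEX2, against 8 of 10 in APEX2-NES. Of the 23 chromatin members, 6 were lower in H2B-APEX2 than in APEX2-NES by footprint reads, under the rule given below, and 0 were higher. Of all members, 17.6% were lower and 7.10% higher in that comparison, and of all genes tested 10.6% and 16.7%.

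Splicing and RNA processing members were led by SON, SRRM2 and PRPF8, the protein at the heart of the spliceosome. PRPF8 had 18 of 27 clusters in the CDS in H2B-APEX2, 35 of 40 in APEX2-NES, 16 of 17 in Connexin43-APEX2 and 20 of 21 in the negative control. Among helicases, DDX24 had 42 of 77, DHX30, which acts on mitochondrial RNA, 42 of 57 and DDX42 27 of 51. Of the cytoplasmic mRNA-binding proteins, CNOT1, the scaffold of the deadenylase complex, had 59 of 88, ATXN2L 35 of 59 and AGO2, the slicer of RNA interference, 23 of 35.

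Cell division members included MKI67, CENPF and ASPM, a spindle pole protein. ASPM (chr1:197053258-197115824, minus strand) had 64 of 81 clusters in the CDS in H2B-APEX2, 2 of 3 in APEX2-NES, 2 of 2 in Connexin43-APEX2 and 6 of 6 in the negative control. H2B-APEX2 gave 81 of its 92 clusters. Replication and repair members were led by POLE (44 of 72), the leading strand polymerase, MCM4 (36 of 69), part of the replicative helicase, and MSH6 (51 of 65), a mismatch repair protein.

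Large structural members were MACF1 and DST, the cytolinkers, with 107 of 152 and 74 of 133 clusters in the CDS, MYH9, nonmuscle myosin heavy chain, with 30 of 47, and DYNC1H1, the dynein heavy chain, with 65 of 82. DST had 52 intronic clusters. Ubiquitin system members were UBR4 (105 of 146), BIRC6 (53 of 78) and VCP (41 of 64), the segregase that extracts ubiquitylated proteins. Among nuclear pore proteins NUP155 had 63 of 112, NUP205 53 of 79 and TPR, the basket protein, 34 of 62. TPR had 26 of 53 in H2B-APEX2, 4 of 4 in APEX2-NES, 1 of 2 in Connexin43-APEX2 and 3 of 3 in the negative control.

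Other members act in protein folding, metabolism and translation. HSP90AA1 and HSP90AB1, the cytosolic HSP90 chaperones, had 46 of 73 and 31 of 50 clusters in the CDS, and CCT4, a chaperonin subunit, 28 of 52. These paralogues have similar sequences, and the sources used here do not say how reads shared between them were assigned. FASN, fatty acid synthase, had 28 of 36 in H2B-APEX2, 23 of 31 in APEX2-NES, 17 of 19 in Connexin43-APEX2 and 19 of 25 in the negative control. CAD, the pyrimidine synthesis enzyme, had 42 of 57 and GART, of purine synthesis, 29 of 54. The glycolytic members were HK1, PFKL (12 of 23), ALDOA (12 of 16) and GAPDH (10 of 14). Of the translation factors, GCN1L1, an activator of the stress kinase GCN2, had 92 of 135, EIF4G2 58 of 92 and EIF3A, the largest subunit of initiation factor eIF3, 64 of 83. AARS, the alanyl-tRNA synthetase, had 32 of 45 and FARSA, of the phenylalanyl enzyme, 14 of 27.

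Nucleolar members were led by MDN1, the giant ATPase of ribosome assembly, with 75 of 100 clusters in the CDS, TCOF1, a factor of ribosomal RNA synthesis, with 36 of 61, and NCL, nucleolin, with 30 of 57. POLR2A, the catalytic subunit of RNA polymerase II, had 21 of 29 in H2B-APEX2, 22 of 28 in APEX2-NES, 12 of 12 in Connexin43-APEX2 and 10 of 10 in the negative control. POLR2B, the second large subunit, had 20 of 32 in H2B-APEX2, 8 of 9 in APEX2-NES, 0 of 1 in Connexin43-APEX2 and 2 of 3 in the negative control, and MED1, of Mediator, had 22 of its 32 CDS clusters in H2B-APEX2. Among the large kinase-related proteins, TRRAP, a scaffold of histone acetyltransferases, had 46 of 68, SMG1, of nonsense-mediated decay, 32 of 63 and MTOR, the growth regulator, 20 of 28.

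At the membrane, FAT1, a giant cadherin, had 17 of 21 clusters in the CDS in H2B-APEX2, 13 of 16 in APEX2-NES, 14 of 15 in Connexin43-APEX2 and 8 of 9 in the negative control. IGF2R, which carries lysosomal enzymes, had 40 of 61. SEC16A, which organises endoplasmic reticulum exit sites, had 44 of 73 and VPS13D, a lipid transfer protein, 32 of 43. Of the nuclear-encoded respiratory chain, ATP5B and ATP5A1, of ATP synthase, had 21 of 32 and 19 of 30. The proteasome members were led by PSMD3 (23 of 32), PSMD1 (15 of 29) and PSMD6 (10 of 16). The histone members HIST1H2AM (8 of 13), HIST1H3H (8 of 13) and HIST3H2A (7 of 11) belong to families of near-identical genes, so their counts are uncertain. Zinc finger members included ZNF227 (51 of 99), ZNF45 (32 of 63) and ZNF281 (26 of 45).

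All 7 mitochondrial mRNAs with at least 10 clusters were members: MT-CO1, MT-CO2, MT-CO3, MT-ATP6, MT-ND1, MT-ND4 and MT-ND5. These mRNAs are made and translated inside mitochondria and have almost no UTRs. They held only 96 of the members' 31242 clusters but 318191 of 644938 crosslinked reads (49.3%). By line, they took 61.6% of the members' reads in H2B-APEX2, 20.6% in APEX2-NES, 22.2% in Connexin43-APEX2 and 40.0% in the negative control. MT-CO2 (MT:7586-8269, plus strand), a subunit of cytochrome c oxidase, had 85488 reads in H2B-APEX2, 4015 in APEX2-NES, 2679 in Connexin43-APEX2 and 995 in the negative control. Per 100000 of the line's reads, MT-CO2, MT-CO3, MT-ATP6 and MT-ND5 were higher in H2B-APEX2 than in the negative control (MT-CO2 at 4908 against 536). MT-CO1 (2867 against 2958), MT-ND1 (564 against 967) and MT-ND4 (3888 against 4593) were lower. All 7 are listed at 0 in bound RNA of H2B-APEX2, where the same line's footprints hold 264338 reads. MT-CO1 and MT-CO2 are also listed at 0 in bound RNA of the negative control of 2016, so RNA values of these 7 genes are read only as listed. The other 1091 members, which are nuclear genes, took 11.5% of nuclear reads in H2B-APEX2, 17.1% in APEX2-NES, 16.5% in Connexin43-APEX2 and 16.2% in the negative control.

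Each gene's footprint reads were divided by all footprint reads of the line and these shares compared, where the pair of lines held 10 reads or more of the gene. To pass, the shares had to have differed at least 4-fold, with 2-fold outside the exact interval of the ratio. The pairs share libraries, and the members were chosen from the same 4 libraries, so these counts describe the members. In H2B-APEX2 over APEX2-NES, 78 of 1098 members were higher (7.10%, against 16.7% of all genes tested) and 193 were lower (17.6%, against 10.6%). Of these, 45 of the higher and 191 of the lower had reads in both lines, and the rest were listed at 0 in 1 of them. The median log2 ratio over members with reads in both lines was -0.66, against 0.17 in the other genes with at least 10 clusters and -0.15 in all genes tested. The rule limits the share of a gene's clusters that lie in introns, which was highest in H2B-APEX2, and how far that sets this direction was not tested. With clusters counted in place of reads, 1 member was higher and 29 were lower.

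ASPM had 1112 reads in H2B-APEX2, 18 in APEX2-NES, 15 in Connexin43-APEX2 and 41 in the negative control, and its share was 20.4-fold higher in H2B-APEX2 than in APEX2-NES (95% interval 12.9 to 34.6). Scaled to each line's total, these were 63.8, 3.13, 5.54 and 22.1 reads per 100000. H2B-APEX2 was thus 2.89-fold above the negative control, which did not pass, and APEX2-NES 7.07-fold below it, which did. TUBGCP6, of the γ-tubulin complex that starts microtubules, had 284, 13, 52 and 47 reads in that order of lines, 7.22-fold higher (4.16 to 13.7). Its low value was that of APEX2-NES alone, since Connexin43-APEX2 was also 8.51-fold above APEX2-NES and APEX2-NES was 11.2-fold below the negative control. MT-CO2 was 7.04-fold higher (6.82 to 7.27), TPR 6.68-fold (404 reads against 20) and DIS3, a catalytic subunit of the nuclear exosome, 6.10-fold (240 against 13). Counted by clusters, TUBGCP6, TPR and DIS3 no longer passed, at log2 ratios of 1.89, 2.16 and 1.23.

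On the low side, SSRP1 had 31 reads in H2B-APEX2 and 237 in APEX2-NES, a share ratio of 0.0433 (0.0287 to 0.0631). TSC22D4, a TSC22 domain protein, had 17 against 129 (ratio 0.0436), EPHA2, an ephrin receptor, 10 against 70 (0.0472), PPP6R1, a regulator of phosphatase 6, 32 against 224 (0.0472) and DVL1, a Wnt pathway adaptor, 14 against 94 (0.0492). Coding GC content moved with this comparison. Its median was 44.7% in the 78 members that were higher, 61.2% in the 193 that were lower and 52.5% in the 827 that passed neither way. Over all genes tested it was 45.1%, 60.9% and 51.0%, and its part in the result was not tested.

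**Figure D5:**
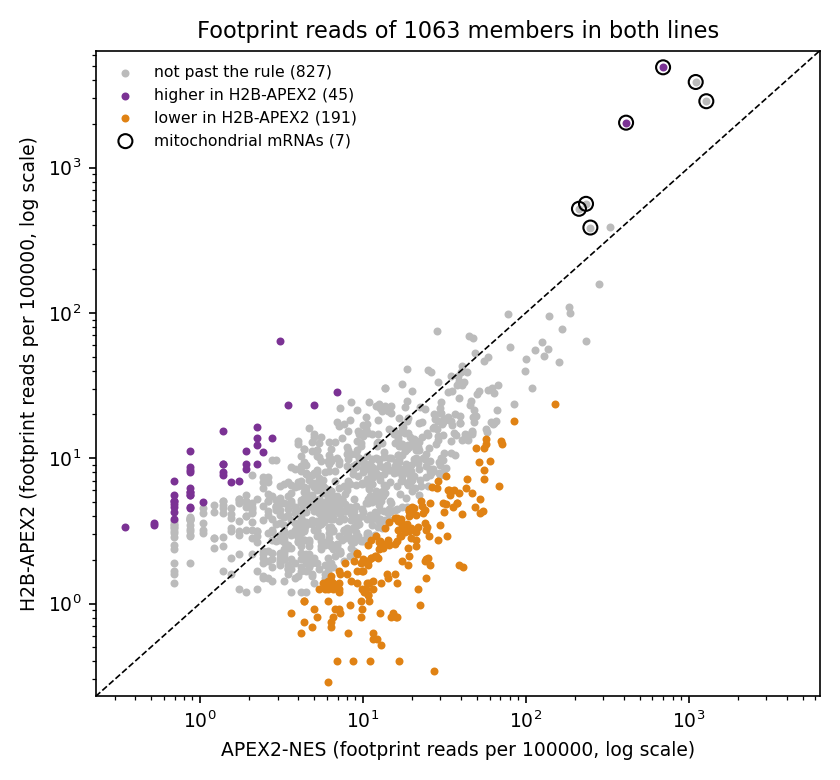
Each point is 1 of 1063 members with footprint reads in both lines, placed by reads per 100000 of the line's total in APEX2-NES (horizontal, log scale) and in H2B-APEX2 (vertical, log scale), with the line of equal shares dashed. Of these, 45 passed as higher in H2B-APEX2 and 191 as lower. All 7 mitochondrial mRNAs lie above the line of equal shares, and 2 of them passed.

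In Connexin43-APEX2 over APEX2-NES, 30 of 1036 members were higher (2.90%, against 6.27% of all genes tested) and 109 were lower (10.5%, against 11.6%). Among the highest with at least 10 reads in both lines were TUBGCP6 (52 reads against 13, 8.51-fold) and ARHGEF39 (35 against 10, 7.45-fold). MYCBP2 (44 against 14) and NFE2L2, the oxidative stress regulator NRF2 (56 against 18), followed at 6.69-fold and 6.62-fold. By CDS reads alone ARHGEF39 and NFE2L2 no longer passed, at log2 ratios of 0.93 and 0.37, against 2.90 and 2.73 by all reads. With the same minimum of reads, the lowest were TRAP1, a mitochondrial HSP90 (11 against 140, ratio 0.167), and SUPT6H, a transcription elongation factor (12 against 146, 0.175). UBE2O (13 against 156, 0.177), KIF22 (19 against 203, 0.199) and ERAL1 (12 against 119, 0.215) followed. All of the genes named for this comparison rest on fewer than 60 reads in Connexin43-APEX2, and with clusters in place of reads 0 members passed in either direction.

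In Connexin43-APEX2 over H2B-APEX2, 188 of 1097 members were higher (17.1%, against 10.4%) and 143 were lower (13.0%, against 16.7%). Centred on the median ratio of all genes tested, 321 were higher and 64 lower. PPIB, an endoplasmic reticulum cyclophilin, had 61 reads against 11, a 35.7-fold higher share (18.6 to 75.2). PPP1R15A, which ends the integrated stress response, had 135 against 26 (33.4-fold), ABCA3 63 against 14 (28.96-fold), DVL1 48 against 14 (22.1-fold) and HPS6 67 against 20 (21.6-fold). Lower were ASPM (15 against 1112, ratio 0.0868), MT-ND5 (533 against 35549, 0.0965), IRS4 (47 against 1705, 0.177), MT-CO2 and BPTF, a chromatin remodelling subunit (17 against 529, 0.207). IRS4 turned round when clusters were counted in place of reads, to a log2 ratio of 1.16 against -2.49. After centring IRS4, MT-CO2 and BPTF no longer passed, at -1.79, -1.60 and -1.57. Neither did BPTF by CDS reads alone (-1.94), nor BPTF and ASPM by clusters (-2.30 and -2.81).

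Against the negative control, the members' counts stood as follows beside those of all genes. In APEX2-NES, 123 of 1034 were higher (11.9%, against 10.6%) and 49 lower (4.74%, against 7.04%), and after centring on the median ratio 97 were higher and 64 lower. In Connexin43-APEX2, 111 of 942 were higher (11.8%, against 11.8%) and 94 lower (9.98%, against 12.6%). In H2B-APEX2, 79 of 1096 were higher (7.21%, against 8.99%) and 105 lower (9.58%, against 6.1%), with 26 higher and 218 lower after such centring, and 46 and 127 by CDS reads alone. Genes ranked in the rest of this paragraph are members with at least 10 reads in each library. That leaves out members such as PSMD3 (251 reads in APEX2-NES against 6) and LMNA (77 in Connexin43-APEX2 against 6). Highest in APEX2-NES were EGR1, an immediate early transcription factor (394 reads against 24, 5.29-fold), and GSK3A, a glycogen synthase kinase (348 against 23, 4.87-fold). EGR1 no longer passed by CDS reads alone or by clusters, at log2 ratios of 1.65 and 0.82, nor did GSK3A by clusters (1.70). Highest in Connexin43-APEX2 were PPP1R15A (135 against 13, 7.12-fold) and MAP7D1 (100 against 13, 5.27-fold), and CLTC, the clathrin heavy chain, was low (44 against 228, ratio 0.132). By clusters PPP1R15A and MAP7D1 no longer passed, both at a log2 ratio of 1.85. In H2B-APEX2 only MT-ND5 (17.4-fold) and MT-CO2 (9.15-fold) were higher among members with at least 10 reads in each library. ALDOA (34 against 115, ratio 0.0315) and PPIB (11 against 28, 0.0418) were the lowest.

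Bound RNA, which the choice of members did not use, was compared on the log2(RPKM + 1) scale for genes with a mean of at least 1 RPKM, centred on the median of all genes tested. A gene passed at a 2-fold difference in every table that holds both lines, and the scale understates changes of low genes. In H2B-APEX2 minus APEX2-NES, each relative to the line's total RNA in the 2017 table, 65 of 370 members were higher (17.6%, against 25.1% of all genes tested) and 91 were lower (24.6%, against 24.9%). The median difference was -0.25 in the members and 0.43 in the other genes with at least 10 clusters. The members' median was -0.07 with bound RNA alone and -0.48 at a mean of at least 5 RPKM. The 91 include the 7 mitochondrial mRNAs listed at 0.

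SSB, the La protein that protects the ends of new small RNAs, stood at 30.9 bound RPKM in H2B-APEX2 against 2.56 in APEX2-NES, a log2 difference of 2.92 after total RNA (1.51 RPKM in H2B-APEX2 and 1.13 in APEX2-NES). PMPCB, a mitochondrial processing peptidase, stood at 6.23 against 0.370 (2.45) and COIL, the marker protein of Cajal bodies, at 8.40 against 0.515 (2.44). RPF1, a ribosome assembly factor, stood at 4.31 against 0.352 (2.42) and HSPD1, the mitochondrial chaperonin, at 162 against 17.8 (2.35). On the low side, AHNAK, a giant scaffold protein, stood at 0.745 bound RPKM in H2B-APEX2 against 15.7 in APEX2-NES (-2.86). GAPDH stood at 22.6 against 131 (-2.79), LMF2 at 0.988 against 7.38 (-2.67), GRN at 1.77 against 8.47 (-2.46) and LMNA, lamin A/C, at 0.854 against 9.10 (-2.37). Bound RNA of the negative control held AHNAK at 21.1 and LMNA at 11.6, above APEX2-NES in both cases. The fibroblast-like markers were also lower in bound RNA of H2B-APEX2 than of APEX2-NES, 8 of 8, and their part in these results was not tested.

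Footprints and bound RNA were then set side by side for the same members. Of 23 members whose footprint reads were higher in H2B-APEX2 than in APEX2-NES and whose RNA was tested, RNA was at least 2-fold higher for 13 (56.5%) and 2-fold lower for 2 (8.70%). The 2 were the mitochondrial MT-CO2 and MT-ND5, whose bound RNA is listed at 0 in H2B-APEX2. Over all genes RNA was higher for 152 of 281 such genes (54.1%) and lower for 22 (7.83%). Of 81 whose footprint reads were lower, RNA was 2-fold lower for 40 (49.4%) and higher for 1 (1.23%), and over all genes lower for 173 of 346 (50%) and higher for 19 (5.49%). Both measures share the lines, and r across 362 members was 0.20. These members include the 7 mitochondrial mRNAs, whose bound RNA is listed at 0 in H2B-APEX2. Their footprint shares were higher in H2B-APEX2 than in APEX2-NES, opposite to their listed RNA, and their part in r was not tested. SSRP1 had fewer footprint reads in H2B-APEX2 while its bound RPKM was 17.5 there and 6.01 in APEX2-NES. Its total RPKM was 6.18 in H2B-APEX2 and 4.32 in APEX2-NES, and relative to total RNA it did not pass.

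Against the negative control, bound RNA of H2B-APEX2 was higher for 101 of 599 members (16.9%, against 25.2%) and lower for 54 (9.02%, against 17.2%). Without centring, 71 were higher and 113 lower, and with counts scaled by TMM 148 and 119. Among members with reads in both libraries, the highest were SSB (3.38), HSPD1 (3.33) and EPRS, a fused aminoacyl-tRNA synthetase (2.94, bound RPKM 39.5 against 5.41). ACAT2 (2.93) and the chaperonin subunit TCP1 (2.71) followed. The lowest of these members were AHNAK (-3.38), LMNA (-2.48), TUBB4B (-2.12), MYH9 (-2.00) and GAPDH (-1.99). The 54 also include the 7 mitochondrial mRNAs, listed at 0 in H2B-APEX2 and at 2159 to 4619 RPKM in the negative control of 2017. In the other lines, where both tables hold the comparison, few members passed. In APEX2-NES 1 of 792 was higher (0.126%, against 1.65%) and 0 lower (against 1.03%), the 1 being AMH, anti-Müllerian hormone (2.04 in 2016 and 1.01 in 2017), while without centring 0 were higher and 24 lower. In Connexin43-APEX2, 10 of 938 were higher (1.07%, against 2.5%) and 0 lower (against 2.03%), among them AMH, FAM69B, LTBP4 and CDH24, while without centring 5 were higher and 14 lower. LTBP4, a matrix protein that stores TGF-β, had a bound RPKM of 4.96 in Connexin43-APEX2 and 1.69 in the negative control of 2017. In Connexin43-APEX2 minus APEX2-NES, 0 of 604 members were higher (against 0.206%) and 2 were lower (0.331%, against 3.64%), AHNAK and the integrin ITGA5, while without centring 8 were higher and 0 lower and with TMM 3 and 7. The fibroblast-like markers were lower in bound RNA of Connexin43-APEX2 than of APEX2-NES too, 8 of 8 in the 2017 table, and their part was not tested. The 2016 table enters that comparison with bound RNA alone. Tables differ in these comparisons before centring, with medians of 1.67 in 2016 and -0.15 in 2017 for Connexin43-APEX2 minus APEX2-NES.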

How the data were processed

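Each footprint sheet, as deposited, lists per gene and region the counts of clusters and the counts of their crosslinked reads, with long and short footprints pooled by the authors. The RNA tables of 2016 and 2017 hold expected counts and RPKM (reads per kilobase of gene and per total reads), both computed by the authors, with a very small value standing for 0. The submitters' processing notes name hg19, bcl2fastq 2.17.1 and TopHat. No cluster caller, read counter or setting is named in the sources at hand. In the 2016 table, columns that name a line were read as bound RNA and 2 columns named total were not used.

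The 4 sheets were joined by Ensembl identifier and the members found by the rule. The members and the gene lists were chosen with earlier results of these data known. Cluster shares have exact Clopper-Pearson 95% intervals and read shares an exact conditional binomial interval, for counting error only. Genes were named by rule: the 15 with most clusters, the 5 with the highest CDS share among those with at least 30 clusters, the 3 nearest the 50% limit on each side, the 3 with most clusters per list, and 5 per direction in each comparison, with at least 10 footprint reads in each line or with reads in every RNA library. Some genes that this rule names are not reported here. The zinc finger list was added after values were seen. Transcript features and sequences are from GENCODE 29 on GRCh38, joined by identifier without coordinates. The deposited RPKM were compared as log2(RPKM + 1). Expected counts, rounded and scaled by TMM in edgeR 4.0.16 (R 4.3.3), were an alternative. Computation used scipy 1.17.1, numpy 2.4.6, matplotlib 3.10.9 and pandas 2.3.3 in Python 3.11.15. The rules were also run on simulated Poisson counts, with counting error but no variation between libraries, and with changes far above the rules' limits. The results therefore give no false-call rate for these data. With 200 genes changed 16-fold, the footprint rule found 98.0% of the 199 tested in H2B-APEX2 over APEX2-NES. It called 0 unchanged genes there, among 9221 genes in all. In Connexin43-APEX2 over APEX2-NES it found 96.0% of 200 and called 0 unchanged genes. With 200 genes changed 8-fold, the RNA rule found 100% in both comparisons and called 33 unchanged genes of 5055 in H2B-APEX2 minus APEX2-NES and 2 of 6325 in Connexin43-APEX2 minus APEX2-NES. With 1 library per group no p-value was computed.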

Additional observations from a re-analysis of the deposited data

How the results depend on the processing

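No paired analysis was possible because each group holds 1 library. Of the values that answer a comparison, 84 were close to the reported one under an alternative and 77 were not; of those for named genes, 351 kept their call, 48 lost it and 1 turned round. The cause was not tested for any of them. Leaving out 1 line at a time gave 746 to 981 members. A minimum of 20 clusters gave 571 and a CDS share above 60% gave 649. With 20 clusters the share in the line left out was 38.2% in H2B-APEX2, 73.8% in APEX2-NES and 73.2% in Connexin43-APEX2 (chosen after seeing the data). By reads the members' CDS share was 75.4% in H2B-APEX2 and 78.1% in Connexin43-APEX2. Without mitochondrial genes, an alternative also chosen after seeing the data, it was 60.9% in H2B-APEX2 and 72.5% in APEX2-NES.

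For the footprint comparisons, counts are given as members higher and then lower. With clusters in place of reads they were 1 and 29 in H2B-APEX2 over APEX2-NES, 0 and 0 in Connexin43-APEX2 over APEX2-NES and 28 and 0 in Connexin43-APEX2 over H2B-APEX2. Over the negative control they were 0 and 14 in H2B-APEX2, 0 and 0 in APEX2-NES and 1 and 1 in Connexin43-APEX2. IRS4 turned to a log2 ratio of 1.16 in Connexin43-APEX2 over H2B-APEX2. With at least 30 reads, 18 were higher in Connexin43-APEX2 over APEX2-NES, 25 lower in APEX2-NES over the negative control, and 58 higher and 39 lower in Connexin43-APEX2 over the negative control. Centring on the median ratio gave 321 and 64 in Connexin43-APEX2 over H2B-APEX2, and 26 and 218 in H2B-APEX2 over the negative control, where CDS reads alone gave 46 higher.

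For bound RNA, a mean of at least 5 RPKM gave 21 and 28 in H2B-APEX2 minus APEX2-NES. Against the negative control it gave 24 and 30 in H2B-APEX2, 0 higher in APEX2-NES and 1 and 1 in Connexin43-APEX2. In Connexin43-APEX2 minus APEX2-NES the counts were 5 and 5 with a pseudocount of 0.1, 8 and 0 with no filter, 8 and 0 without centring, 3 and 7 with TMM-scaled counts, 1 and 0 with bound RNA alone, 45 and 4 in the 2016 table alone and 9 and 10 in the 2017 table alone. In H2B-APEX2 minus the negative control, 131 were lower with a pseudocount of 0.1, 126 with no filter, 113 without centring and 119 with TMM. In APEX2-NES minus the negative control, 9 were higher with a pseudocount of 0.1 and 11 with TMM, and the counts were 0 and 15 with no filter, 0 and 24 without centring, 18 and 40 in 2016 alone and 8 and 17 in 2017 alone. In Connexin43-APEX2 minus the negative control they were 47 and 4 with a pseudocount of 0.1, 5 and 13 with no filter, 5 and 14 without centring, 48 and 5 with TMM, 168 and 38 in 2016 alone and 26 and 9 in 2017 alone.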
